A study of Sus scrofa with 15 samples.

Results

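ALAS2, HBM and AHSP are transcripts of developing red cells, and they were taken here as a gauge of blood in pig backfat. Members were all probe sets whose annotated gene symbol is exactly ALAS2, HBM or AHSP, and 3 probe sets were found, 1 per gene, among the 3255 tested. Backfat was sampled at slaughter from 15 castrated male Iberian pigs, with 1 Affymetrix porcine array per animal. There were 8 animals on a high-oleic diet, enriched in oleic acid, and 7 on a standard control diet. All animals entered the trial at 28 kg live weight, were fed for 24 weeks and were killed at about 110 kg. Rations were set to supply equal energy and protein. Only the inner fat layer, taken at the last rib, was arrayed. Live weight at slaughter ran between 104.5 and 116 kg on the high-oleic diet and between 112 and 133 kg on the control diet. No age is given, and the labels do not say how carcasses were bled or whether the fat was rinsed. LEP, which encodes the fat cell hormone leptin, had log2 signals between 10.29 and 12.52 over the 15 animals.

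Red cell precursors build haemoglobin from globin chains and haem, and they lose their nucleus before they enter the blood as reticulocytes. Reticulocytes and young red cells still carry remnants of this RNA, so a piece of tissue with blood in its vessels can carry red cell transcripts that its own cells do not make. ALAS2 encodes the erythroid form of 5-aminolevulinate synthase, which catalyses the first step of haem synthesis. AHSP encodes the alpha haemoglobin stabilising protein, a chaperone that binds free alpha globin. HBM encodes mu globin, a member of the alpha globin family known from human red cell precursors at low level. HBM has several related globin genes, and whether its probes also bind other globin transcripts was not tested.

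Values are log2 signals, so a difference of 1 is a 2-fold difference. The signals of different probe sets are not on a common scale, so levels are compared between animals and not between genes. In bulk fat, a larger share of red cells and more RNA per red cell cannot be told apart. No detection calls were used here, so whether the low AHSP signals stood above background was not tested.

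ALAS2 varied 6.66-fold between the lowest and the highest of the 15 animals. On the high-oleic diet its log2 signal was 5.70 at the lowest, 7.26 at the median and 8.43 at the highest, against 5.91, 6.93 and 6.96 on the control diet. High-oleic animals 8 and 7 were highest, at 8.43 and 8.09, and high-oleic animal 2 was the lowest of all 15. Among control animals, animals 1 and 5 stood at 5.91 and 5.96, and the other 5 lay between 6.64 and 6.96. Of the 8 high-oleic animals 6 lay above every control animal and 1 lay below every control animal, so the diets overlapped at the lower end.

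AHSP varied 5.10-fold over the animals. On the high-oleic diet its log2 signal was 2.68 at the lowest, 3.94 at the median and 4.96 at the highest, against 2.61, 3.70 and 3.98 on the control diet. The highest were high-oleic animals 8 and 5, at 4.96 and 4.82, followed by high-oleic animals 1 and 7 at 4.42 and 4.23. High-oleic animal 2 and control animals 1 and 5 were the 3 lowest, at 2.68, 2.61 and 3.10. The same 3 animals were the lowest in ALAS2. The groups overlapped, with 4 of 8 high-oleic animals above every control animal.

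HBM varied most of the 3, 11.4-fold over the animals. On the high-oleic diet its log2 signal was 5.86 at the lowest, 6.35 at the median and 8.60 at the highest, against 5.09, 6.06 and 7.64 on the control diet. Values between 6.49 and 7.40 were not seen: 5 animals lay above this gap and 10 below it. The 5 above it were high-oleic animals 7, 3 and 1, at 8.60, 7.71 and 7.40, and control animals 3 and 2, at 7.64 and 7.49. High-oleic animals 8 and 5, the highest in AHSP, had HBM signals of 6.49 and 6.21. The diets overlapped over most of their range.

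**Figure D1:**
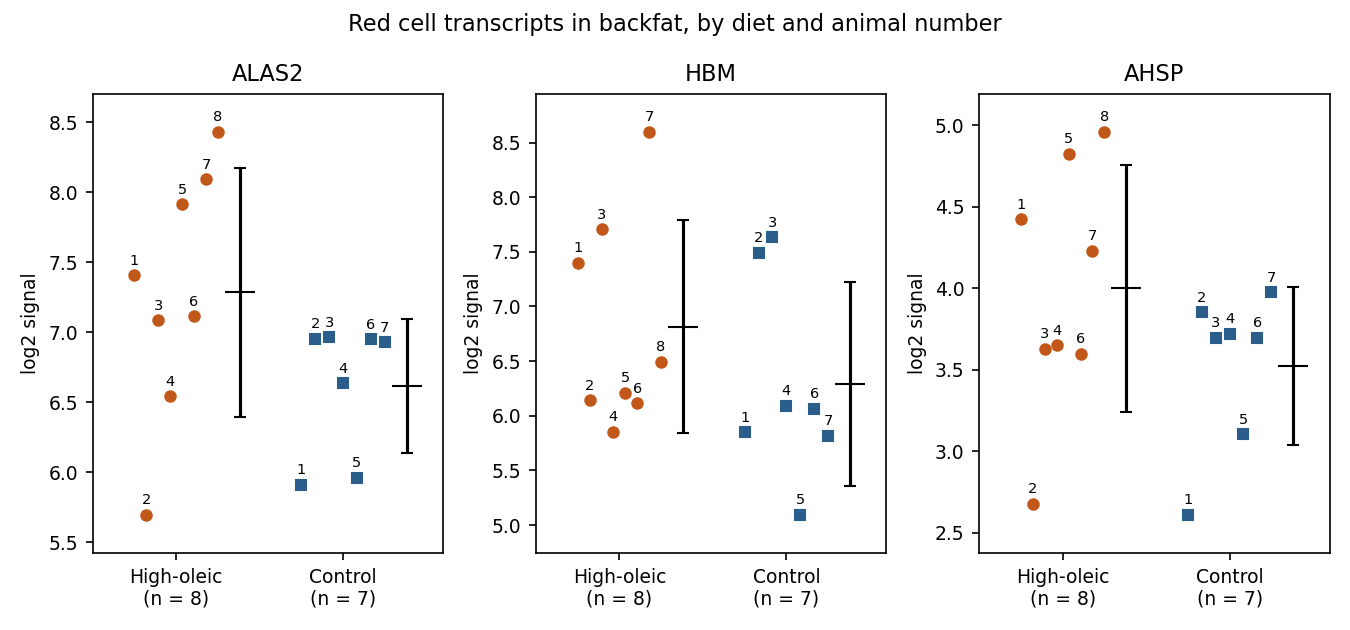
Log2 signal (y axis) of ALAS2, HBM and AHSP in each animal on the high-oleic diet (circles, n = 8) and the control diet (squares, n = 7), with the animal number beside each point and the mean ± SD as black bars. The 3 lowest animals in both ALAS2 and AHSP are high-oleic animal 2 and control animals 1 and 5, while HBM is high in a different set of 5 animals.

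The comparison of diets asks whether oleic acid enrichment went with more or less of these transcripts in the fat. All 3 had higher mean signal on the high-oleic diet, and none passed the test. ALAS2 averaged 7.29 ± 0.89 on the high-oleic diet (SD, n = 8) and 6.62 ± 0.48 on the control diet (SD, n = 7). The difference was 0.67 (SE 0.35, 95% interval -0.06 to 1.40), or 1.59-fold. HBM averaged 6.82 ± 0.97 and 6.29 ± 0.93 on the high-oleic and control diets, a difference of 0.52 (SE 0.43, 95% interval -0.38 to 1.42). AHSP averaged 3.998 ± 0.756 and 3.522 ± 0.487 on the high-oleic and control diets, a difference of 0.48 (SE 0.32, 95% interval -0.19 to 1.14).

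In limma over all 3255 probe sets the adjusted p was 0.999 for each of the 3, and unadjusted p was 0.0688 for ALAS2, 0.153 for AHSP and 0.24 for HBM. The two-sided exact permutation test over animals gave unadjusted p = 0.103 for ALAS2, 0.18 for AHSP and 0.306 for HBM. None of the 3 was called, and the share called in the whole table was 0% at an adjusted p under 0.05. At an unadjusted p under 0.05 none of the 3 was called either, against 3.93% of all probe sets in limma and 4.18% by the exact test. The share of all probe sets called in limma at that level and higher on the high-oleic diet was 2.03%. None of the 3 had diet groups that did not overlap, against 0.0307% of all probe sets. All 3 differences were above 0, against 46.8% of all probe sets. As folds, the 95% intervals ran from 0.962 to 2.63 for ALAS2, 0.771 to 2.68 for HBM and 0.876 to 2.21 for AHSP. High-oleic animal 2 weighed on ALAS2 and AHSP: without it the differences were 0.90 (limma, unadjusted p = 0.00815, adjusted p = 0.990) and 0.66 (limma, unadjusted p = 0.0337, adjusted p = 0.990). Other animals weighed the other way. Leaving out control animal 1 gave 0.55 for ALAS2 (limma, unadjusted p = 0.139) and 0.32 for AHSP (limma, unadjusted p = 0.322). Leaving out high-oleic animal 8 gave 0.51 for ALAS2 (limma, unadjusted p = 0.145) and 0.34 for AHSP (limma, unadjusted p = 0.284). Without high-oleic animal 7 the HBM difference was 0.27, and without control animal 5 it was 0.32.

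Live weight differed between the diets, and it was set beside the transcripts for that reason. At fixed diet the slope per 10 kg was -0.13 for ALAS2 (SE 0.34), -0.35 for HBM (SE 0.41) and -0.14 for AHSP (SE 0.31) on the log2 scale. In limma the adjusted p was 0.941, 0.921 and 0.933 for ALAS2, HBM and AHSP. None was called, against 0% of the table at an adjusted and 3.81% at an unadjusted p under 0.05. Control animal 5 was the heaviest animal, at 133 kg. Without it the 3 slopes turned positive, at 0.56, 0.65 and 0.16. With live weight in the fit the diet difference was 0.56 for ALAS2, 0.24 for HBM and 0.36 for AHSP.

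ALAS2 and AHSP varied together over the 15 animals, and HBM followed them less closely. Between ALAS2 and AHSP Pearson's r was 0.934 (permutation p = 1e-05, the smallest that 100000 permutations can give, adjusted p = 3e-05 over the 3 pairs) and Spearman's rho was 0.761 (permutation p = 0.00131). It was 0.927 in the high-oleic group (exact permutation p = 0.00159) and 0.926 in the control group (exact permutation p = 0.0139). Without high-oleic animals 8 and 2, the farthest from the ALAS2 median, it was 0.885 (permutation p = 0.00021). Of the other 3254 probe sets 0 had a higher r with ALAS2 than AHSP did. In the other direction 1 probe set, a B2M probe set described below, had a higher r with AHSP than ALAS2 did. The difference between the ALAS2 and AHSP signals of an animal had an SD of 0.29 over animals, less than the SD of 0.78 of ALAS2 and 0.67 of AHSP.

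Between ALAS2 and HBM r was 0.527 (permutation p = 0.0432, adjusted p = 0.0649), which did not pass, while rho was 0.675 (permutation p = 0.00776, adjusted p = 0.0116), which did. In the high-oleic group r was 0.410 (exact permutation p = 0.316), and in the control group 0.652 (exact permutation p = 0.0879). Between AHSP and HBM r was 0.356 (permutation p = 0.193, adjusted p = 0.193) and rho 0.408 (permutation p = 0.133). In the high-oleic group that r was 0.200 (exact permutation p = 0.635), and in the control group 0.456 (exact permutation p = 0.304). The difference between the HBM and ALAS2 signals of an animal ranged over 2.61 log2 units, against 1.01 for AHSP and ALAS2.

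High-oleic animals 8 and 5 had the lowest HBM minus ALAS2 differences, at -1.94 and -1.70 log2 units. Without high-oleic animals 8 and 2, the farthest from the ALAS2 median, the ALAS2 with HBM r was 0.655 (permutation p = 0.0161, adjusted p = 0.0241). Without high-oleic animals 8 and 5, the farthest from the AHSP median, the AHSP with HBM r was 0.570 (permutation p = 0.0421, adjusted p = 0.0421). No test of the difference between these correlations was run.

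**Figure D2:**
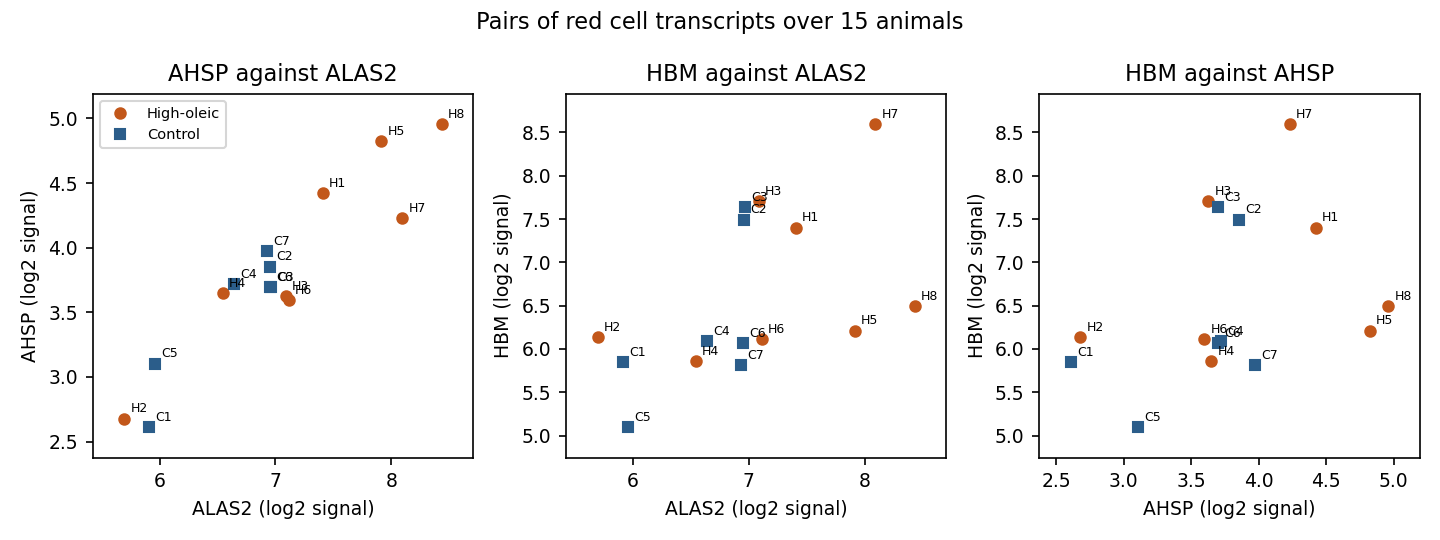
Log2 signals of each pair of the 3 transcripts, 1 point per animal, with high-oleic animals as circles (H and the animal number) and control animals as squares (C and the animal number). AHSP and ALAS2 lie along 1 line (r = 0.934), while high-oleic animals 8 and 5, at the high end of AHSP, have HBM signals of 6.49 and 6.21, below the 8.60 of high-oleic animal 7.

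Transcripts spiked into the RNA gave a signal on these arrays that was highest in high-oleic animal 8, at 7.29, against 5.19 to 6.50 in the other 14 animals. This signal was the mean log2 value of 7 control probe sets. Every row of the deposited table varied between animals, so any steady spiked probe set was left out of this mean. The spiked signal gave r = 0.622 with ALAS2 (permutation p = 0.0131, adjusted p = 0.201 over 39 relations, rho = 0.471) and r = 0.576 with AHSP (permutation p = 0.0258, adjusted p = 0.201, rho = 0.366). With HBM it gave r = -0.144. Without control animal 1 and high-oleic animal 8 these were 0.320 for ALAS2 and 0.215 for AHSP. Within diets the r with ALAS2 was 0.652 among high-oleic and 0.229 among control animals, and the r with AHSP 0.539 among high-oleic and 0.497 among control animals. At fixed spiked signal the correlation was 0.899 for ALAS2 with AHSP (permutation p = 2e-05), 0.795 for ALAS2 with HBM (permutation p = 0.00038) and 0.542 for AHSP with HBM (permutation p = 0.0373), a setting chosen after the data were seen. All 3 passed at that setting after adjustment over the pairs. With the spiked signal in the fit the diet difference was 0.43 for ALAS2, 0.66 for HBM and 0.28 for AHSP. The part of the spiked signal in these results was not tested further.

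A further 74 genes of red cells were listed, among them the other globins, membrane proteins and haem enzymes, and 4 of them were measured by named probe sets. The rest were not analysed here. Each of the 4 is also active outside red cells. UROD, uroporphyrinogen decarboxylase of the haem pathway, gave r = 0.562 with ALAS2 and r = -0.0254 with HBM. AQP1, a water channel of red cells and of vessel endothelium, gave r = 0.638 with ALAS2 and r = 0.708 with AHSP. SLC2A1, a glucose transporter, gave r = 0.488 with ALAS2, and SLC25A38, a mitochondrial glycine carrier of haem synthesis, r = 0.265. All 4 were positively related to ALAS2 and AHSP and negatively to HBM. Of all 3254 other probe sets 1735 were positively related to ALAS2 and 1740 to AHSP, and 1995 were negatively related to HBM. High-oleic animal 8, which also had the highest spiked signal, was the highest of the 15 in each of the 4.

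None of the 4 was called between diets. The high-oleic minus control difference was 0.11 for UROD, 0.35 for SLC2A1, 0.06 for SLC25A38 and -0.0041 for AQP1. Their median difference was 0.08, against -0.03 over all tested probe sets. None of the 4 was called as following ALAS2, HBM or AHSP at fixed diet either. Their summed pattern, the mean of centred log2 values, gave r = 0.592 with ALAS2 (permutation p = 0.0206, adjusted p = 0.201) and r = 0.605 with AHSP (permutation p = 0.017, adjusted p = 0.201). Without control animal 1 and high-oleic animal 8 these were 0.230 and 0.215.

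Of 22 genes of haem and iron handling outside the red cell 6 were measured, and 0 of the 6 were called between diets or with any of the 3 transcripts. ALAS1, the form of 5-aminolevulinate synthase found in all tissues, gave r = 0.384 with ALAS2 and r = -0.0222 with HBM. HMOX1, the haem oxygenase that breaks haem down, gave r = 0.285 with ALAS2, r = 0.0468 with HBM and r = 0.196 with AHSP. CD163, the macrophage receptor that takes up haemoglobin bound to haptoglobin, gave r = -0.140 with ALAS2 and r = -0.230 with AHSP.

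Other cells of blood were sparsely measured, with 1 of 21 neutrophil, 2 of 15 platelet and 8 of 32 lymphocyte genes. S100A9, a calcium-binding protein of neutrophils, gave r = 0.327 with ALAS2, r = -0.275 with HBM and r = 0.354 with AHSP. Without high-oleic animal 8 the r of S100A9 was 0.203 with ALAS2 and 0.241 with AHSP. Without control animal 4 and high-oleic animal 6, the farthest from the S100A9 median, it was 0.516 with ALAS2 (permutation p = 0.0732, not adjusted). At that setting it was 0.559 with AHSP (permutation p = 0.047, not adjusted) and -0.195 with HBM. Of the platelet genes, THBS1, thrombospondin, which fat and vessel cells also make, gave r = -0.606 with ALAS2 and -0.593 with AHSP. SELP, the adhesion molecule P-selectin of platelets and endothelium, gave 0.425 with ALAS2 and 0.262 with AHSP. The score of the 2 platelet genes gave r = -0.121 with ALAS2, 0.222 with HBM and -0.233 with AHSP. Without high-oleic animal 8 it gave -0.461, 0.260 and -0.580 (permutation p = 0.0304 for AHSP, not adjusted). Without high-oleic animals 5 and 8, the farthest from its median, it gave -0.270, 0.250 and -0.370 (permutation p = 0.214 for AHSP). The lymphocyte score, the mean of centred log2 values over the list, gave r = -0.132 with ALAS2, -0.068 with HBM and -0.184 with AHSP. Without high-oleic animal 8 these were -0.424, -0.0644 and -0.468. Without high-oleic animals 2 and 8, the farthest from its median, they were -0.138, 0.0326 and -0.212. The lymphocyte score ran between -0.32 and 0.98 on the high-oleic diet and between -0.58 and 0.41 on the control diet. The macrophage and monocyte score, over 12 of 21 genes, gave r = -0.0024 with ALAS2, -0.101 with HBM and -0.0273 with AHSP. Without high-oleic animal 8 they were -0.334, -0.103 and -0.343, and without high-oleic animals 4 and 8 they were -0.487, -0.262 and -0.421. It ran between -1.22 and 1.16 on the high-oleic diet and between -0.29 and 0.14 on the control diet.

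Vessel, muscle and fat cell lists were set beside the transcripts in the same way. Some lists share measured genes: AQP1 is in the red cell and endothelial lists, and CD163 in the haem and macrophage lists. The endothelial score, over 7 of 22 genes, gave r = 0.281 with ALAS2 and 0.309 with AHSP, and -0.0929 and -0.0820 without control animal 7 and high-oleic animal 8. TIE1, a receptor of endothelial cells, gave r = 0.764 with AHSP, while KDR, a receptor of vascular endothelial growth factor, gave r = -0.644. KDR signals were low, between 2.36 and 3.76, and whether they stood above background was not tested. Control animal 1 was the highest animal in KDR and the lowest in TIE1. The skeletal muscle score, over 14 of 30 genes, gave r = 0.233 with ALAS2 and 0.264 with HBM, and HBM was positively related to all 14 genes, against 1259 of 3254 probe sets. Without control animal 2 and high-oleic animal 7 these r were 0.0641 with ALAS2 and -0.348 with HBM. The smooth muscle and pericyte score, over 10 of 20 genes, gave r = -0.186 with ALAS2 and -0.278 with AHSP, and 0.359 and 0.402 without control animals 1 and 6. The adipocyte score, over 5 of 25 genes, gave r = 0.400 with ALAS2 and 0.275 with AHSP. Over the 39 relations of the 3 transcripts with 11 marker lists, spiked signal and live weight, 0 passed at an adjusted permutation p under 0.05. At an unadjusted p under 0.05, 6 of the 39 did so. These were ALAS2 and AHSP with the red cell list, the spiked signal and the interferon list described below. Without the 2 animals farthest from the median of the measure, permutation p for these 6 lay between 0.286 and 0.898.

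**Figure D3:**
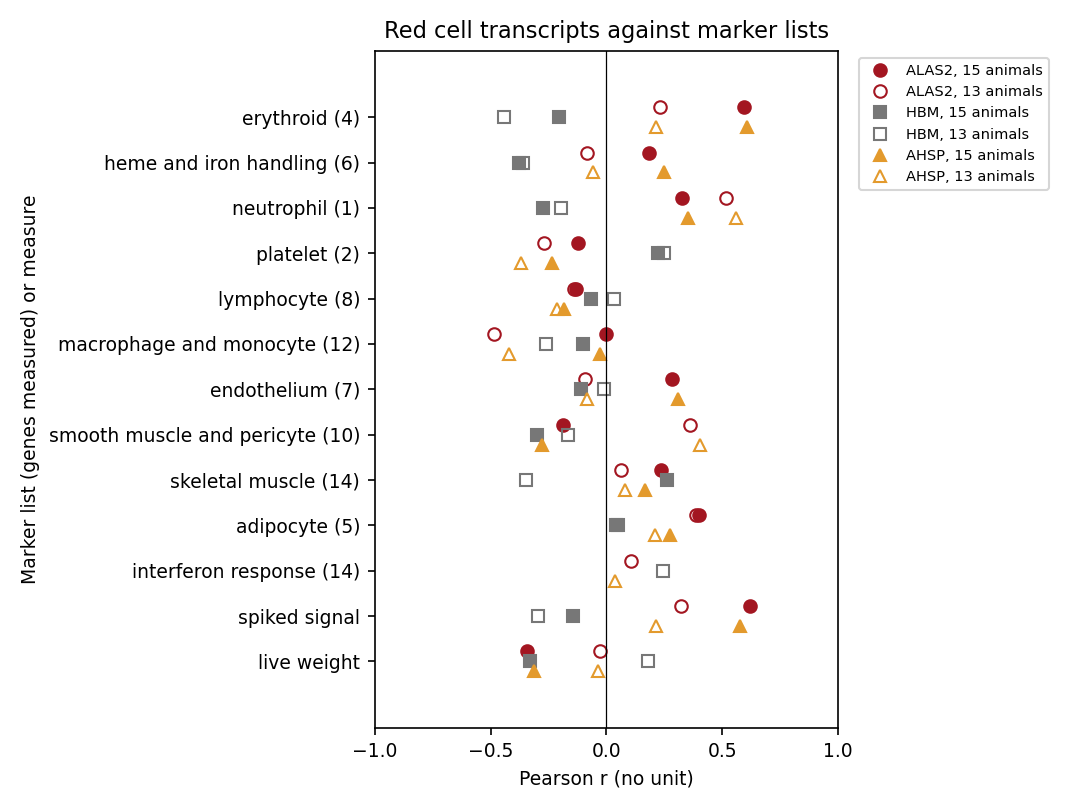
Pearson r (x axis, no unit) of ALAS2, HBM and AHSP with the score of each marker list, the spiked signal and live weight (y axis), as filled points over 15 animals and as open points without the 2 animals farthest from the median of that score or measure. Only open points are drawn for the interferon list, because 2 animals stand apart in it, and they lie at 0.105 for ALAS2 and 0.0392 for AHSP.

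The interferon list, of genes that cells switch on in response to interferons, stood apart from the rest. High-oleic animal 2 and control animal 1 had scores of 3.06 and 3.22, against -1.05 to 0.22 in the other 13 animals. These 2 animals had the lowest AHSP signals of all and were among the 3 lowest in ALAS2. Among the other 13 animals the interferon score gave r = 0.0392 with AHSP (permutation p = 0.898) and r = 0.105 with ALAS2 (permutation p = 0.735). The relation over all 15 therefore rested on these 2 animals, and no pooled value is given. ALAS2 with AHSP, without the same 2 animals, gave r = 0.899 (permutation p = 0.00012), a setting chosen after the data were seen.

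**Figure D4:**
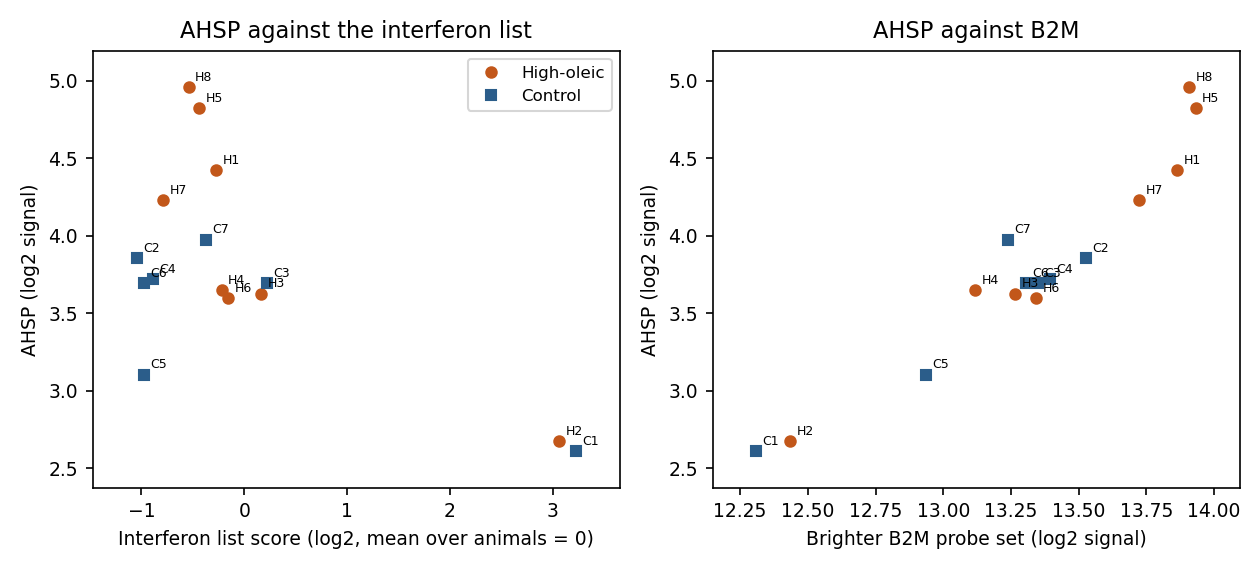
Log2 signal of AHSP (y axis) against the interferon list score (left, log2 units, mean over the 15 animals set to 0) and against the log2 signal of the brighter B2M probe set (right), 1 point per animal, with high-oleic animals as circles (H) and control animals as squares (C). H2 and C1 lie apart on the left at scores of 3.06 and 3.22. On the right AHSP climbs along B2M (r = 0.956), and H2 and C1 lie lowest in both.

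The probe set most like the 3 transcripts was 1 of the 2 for B2M, which encodes beta-2 microglobulin, the light chain of major histocompatibility class I molecules on nucleated cells. Likeness was the mean of Pearson's r with the 3 members over 15 animals, given here as a description because each probe set was picked for it. This B2M probe set gave r = 0.956 with AHSP, 0.907 with ALAS2 and 0.466 with HBM. Its log2 signal was 12.44 at the lowest in high-oleic animals, in animal 2, and 12.31 at the lowest in control animals, in animal 1. The second B2M probe set gave r = 0.217 with AHSP and 0.335 with ALAS2, and stood at 8.55 in high-oleic animal 2 and 7.70 in control animal 1. The 2 B2M probe sets therefore disagreed, and B2M as a gene cannot be said to vary with the red cell transcripts.

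The next most alike were LMCD1, a LIM domain protein, with r = 0.899 for ALAS2, and DDAH1, which degrades asymmetric dimethylarginine, with r = 0.865 for AHSP. KLF11, a Krüppel-like transcription factor, TSPAN7, a tetraspanin, PDE9A, a phosphodiesterase of cyclic GMP, and PLLP, plasmolipin, gave mean r between 0.563 and 0.635. ANGPTL4, an inhibitor of lipoprotein lipase, CPT1A, which carries fatty acids into mitochondria, and the uncoupling protein UCP3 gave 0.599, 0.588 and 0.594. A second probe set gave a mean r of 0.578 for LMCD1, 0.618 for KLF11, 0.596 for ANGPTL4 and 0.460 for UCP3. These r pool both diets. UCP3 and PDE9A were higher on the high-oleic diet, by 0.79 (limma, unadjusted p = 0.00468) and 0.72 (limma, unadjusted p = 0.00764). Adjusted p in limma was 0.999 for both. The r with HBM was 0.606, 0.549 and 0.652 for ANGPTL4, CPT1A and UCP3, and 0.202 to 0.486 for the probe sets of B2M, LMCD1, DDAH1, KLF11, TSPAN7, PDE9A and PLLP. The second KLF11 probe set gave r = 0.584 with HBM, and no test of these differences was run. High-oleic animal 8 was the highest animal in 8 of these 10 probe sets. High-oleic animal 2, 1 of the 2 animals with high interferon scores, was the lowest in LMCD1, DDAH1 and TSPAN7. Control animal 5, the lowest in HBM at 5.09, was the lowest in KLF11, ANGPTL4, UCP3, PDE9A, CPT1A and PLLP. How far these r rest on single animals was not tested.

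The least alike of all named probe sets was DNAJA1, a heat shock protein co-chaperone, with r = -0.753 for ALAS2, -0.580 for HBM and -0.664 for AHSP. LAMP2, a lysosomal membrane protein, gave r = -0.813 with ALAS2 and -0.817 with AHSP, but -0.161 with HBM. Its other 2 probe sets gave -0.610 and -0.457 with AHSP. NT5C3A, a pyrimidine nucleotidase known from human red cells, gave -0.753 with ALAS2, -0.779 with AHSP and -0.278 with HBM. APOD, an apolipoprotein, gave a mean r of -0.601, and C9, the last component of the complement pore, -0.584. Control animal 1, 1 of the 2 animals with high interferon scores, was the highest animal in NT5C3A, APOD and LAMP2. How far these r rest on that animal was not tested.

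**Figure D5:**
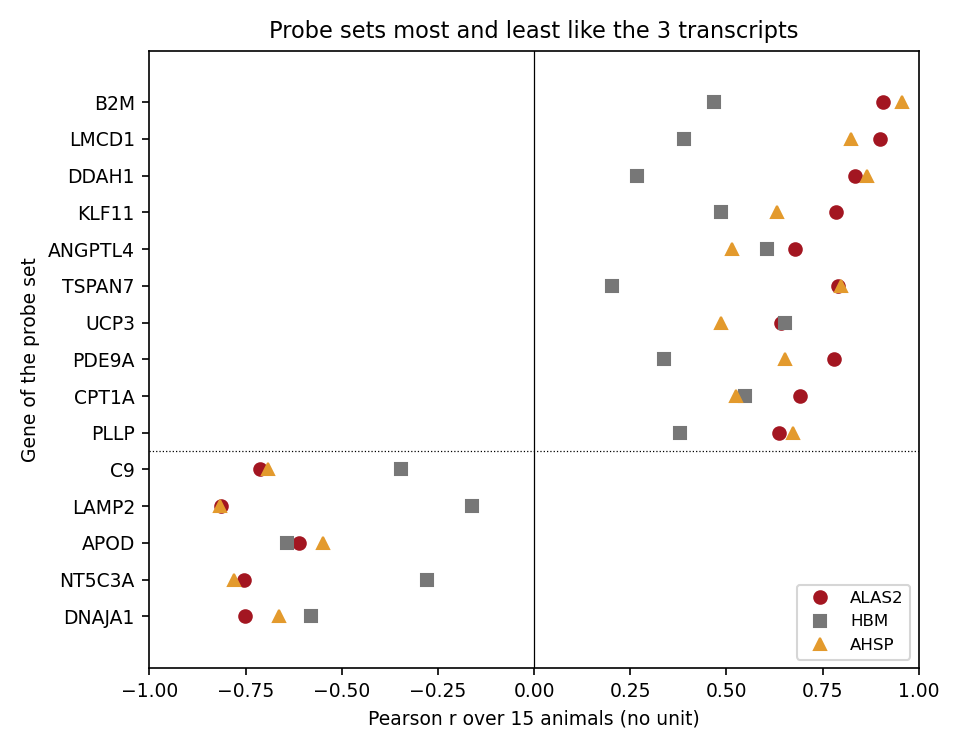
Pearson r over 15 animals (x axis, no unit) with ALAS2 (circles), HBM (squares) and AHSP (triangles) for the 10 named probe sets of highest mean r, above the dotted line, and the 5 of lowest mean r, below it. B2M lies at the top with r = 0.956 for AHSP, and the squares of HBM lie nearer to 0 than the other marks for LAMP2 and NT5C3A.

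How much of the table moved with each transcript was tested in limma with diet in the fit. At an adjusted p under 0.05, 21 of 3254 probe sets followed AHSP, or 0.645%, with 7 positive and 14 negative. ALAS2 and HBM were followed by 0 probe sets, or 0%. At an unadjusted p under 0.05 the shares were 13.8% for AHSP, 14.8% for ALAS2 and 2.43% for HBM. ALAS2 was called as following AHSP, with a slope of 1.04 log2 units per unit of AHSP (SE 0.18, limma adjusted p = 0.0312), and HBM was not, with a slope of 0.42 (limma adjusted p = 0.620). With ALAS2 as the term, AHSP had a slope of 0.82 (SE 0.15, limma adjusted p = 0.0757).

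Of the 21 probe sets 13 had a gene symbol. The 4 positive ones were ALAS2, DDAH1, TSPAN7 and the B2M probe set above, whose slope was 0.70 (SE 0.16, limma adjusted p = 0.0452). The 9 negative ones belonged to DDX58 with 2 probe sets, IFIT1, EIF2AK2, IFIT2, IFI44L, PLSCR1, NT5C3A and CXCL13. Of these 9, 6 were probe sets of 5 genes of the interferon list. IFIT1, IFIT2 and IFI44L each had 3 probe sets, of which 1 was called. Among the brightest probe sets of the 14 measured list genes 3 were called, against 0.645% of all probe sets. The count of 21 became 0 when control animal 1, high-oleic animal 2, or both were left out, and also without control animal 6 or 7. Without high-oleic animal 8 it was 5, and with the spiked signal in the fit it was 0. ALAS2 kept a positive slope on AHSP of 1.02 without control animal 1 and high-oleic animal 2 (limma adjusted p = 0.696). The slope of the B2M probe set without the same animals was 0.55 (limma adjusted p = 0.696). With ALAS2 as the term, leaving out high-oleic animal 4 gave a count of 16, and leaving out control animal 5 gave 48.

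The probe sets closest to HBM are given as a description, because they were picked for their r. At fixed diet 0 of 3254 probe sets followed HBM at a limma adjusted p under 0.05, and 2.43% did at an unadjusted p under 0.05. ABCD3, a peroxisomal transporter of fatty acids, gave the highest r with HBM of any probe set, at 0.788, and was named after its value was seen. Outside the 3 members, 2 probe sets had r above 0.7 with HBM, ABCD3 among them, against 29 with ALAS2 and 26 with AHSP. ALAS2 ranked behind 34 other probe sets in r with HBM, and AHSP behind 173.

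Diet was also tested at fixed level of each transcript. With ALAS2, HBM or AHSP in the fit beside diet, limma placed 0 probe sets at an adjusted p under 0.05, as it did with diet alone. At an unadjusted p under 0.05 the counts were 111, 83 and 130 with ALAS2, HBM and AHSP in the fit, against 128 with diet alone.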

How the data were processed

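Backfat RNA of 15 pigs was measured on Affymetrix arrays. The submitters' processing notes name GCOS and GCRMA, with no version. The authors deposited 1 table of log2 values for 3272 probe sets. In each of its rows at least 3 animals lay 1.50-fold or more from the median of the row, so steady probe sets were not analysed here. Precision is limited by the number of arrays, and array medians lay between 6.38 and 6.67. Diet, animal number and weight came from the labels. A platform table gave 1 symbol for 1455 of 3255 tested probe sets, several for 27 and none for 1773. The platform's gene IDs of ALAS2 and HBM matched a RefSeq table of assembly Sscrofa11.1, and AHSP matched by symbol alone. No sequences are shown.

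Fits were made on all 3255 probe sets, after 17 control probe sets were left out, with limma 3.58.1 in R 4.3.3 (lmFit, eBayes), two-sided, with Benjamini-Hochberg adjustment at 0.05. Correlations were tested with 100000 permutations, or all orders within a diet, in numpy 2.4.6. A list used the brightest probe set per gene. Fits were tested on simulated data. The members and gene lists were chosen with earlier results of these data known. The text names all member probe sets, measured genes of the red cell list, the 10 named probe sets of highest and 5 of lowest mean r, 1 per gene, and up to 3 genes of other lists. Other genes were named after their values were seen. Alternatives were quantile normalization, median centring, a filter at a mean log2 of 5, leaving out each animal, live weight, a window of 109.5 to 118 kg, spiked signal, animal number as a block, array weights, a robust trend and an exact test. Animal numbers are not stated to pair the diets.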

Additional observations from a re-analysis of the deposited data

Results flagged for a closer look

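A single animal stood far from the rest of its diet group in 11 of 68 checks, where chance does so in about 1 in 20, or 3.40 times if the checks were independent. Several fell on the same animal, and none fell on ALAS2, HBM or AHSP themselves. High-oleic animal 2 had a TSPAN7 signal of 5.29, where the other high-oleic animals had a median of 7.66, and an interferon score of 3.06, against -0.27. Control animal 1 had signals of 4.25 for DDAH1, 5.88 for TSPAN7, 10.38 for NT5C3A and 12.94 for LAMP2, where the other control animals had medians of 5.69, 7.58, 8.08 and 12.26, and an interferon score of 3.22, against -0.93. Control animal 5 had signals of 8.57 for ANGPTL4 and 7.67 for CPT1A, against 10.15 and 9.22. High-oleic animal 8 had an endothelial score of 0.56, against -0.10, and high-oleic animal 7 a skeletal muscle score of 2.66, against -0.46. The causes were not tested.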

How the results depend on the processing

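The diet differences of ALAS2, HBM and AHSP stayed positive and uncalled under every alternative run, between 0.43 and 0.90, 0.24 and 0.75, and 0.28 and 0.66. Leaving out single animals gave 0.51 to 0.90 for ALAS2, 0.27 to 0.75 for HBM and 0.32 to 0.66 for AHSP, and 0 diet calls each time. With the animal number as a replicate block, on animals 1 to 7 of each diet, they were 0.51, 0.57 and 0.34 with 0 calls. The block changed no call. Deviations of same-numbered animals correlated between -0.16 and 0.30, and 2 of 7 control animals correlated best with their own number. With the spiked signal in the fit 1 probe set was called between diets. Live weight slopes ran from -0.33 to 0.56 for ALAS2, -0.79 to 0.65 for HBM and -0.28 to 0.16 for AHSP over animals left out.

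The ALAS2 with AHSP correlation passed in all 24 alternatives, with r of 0.912 to 0.953 over animals left out. ALAS2 with HBM gave 0.397 to 0.629 over animals left out, and passed without high-oleic animal 8 (0.629) or 5 (0.599). It also passed as rho (0.675), after quantile normalization (0.557), without the 2 farthest animals (0.655) and at fixed spiked signal (0.795). AHSP with HBM gave 0.274 to 0.448 over animals left out, and passed without the 2 farthest animals (0.570) and at fixed spiked signal (0.542). Probe sets following AHSP numbered 0 to 75 over animals left out, 1 after quantile normalization, 13 after median centring, 83 with live weight and 0 with the spiked signal in the fit, and 0 without both interferon-high animals. The cause was not tested. Those following ALAS2 numbered 0 to 48 over animals left out, 18 after a live weight term was added, and those following HBM 0 under every alternative run. A filter at a mean log2 of 5 removed AHSP, so it has no diet value there. Whether AHSP stood above background was not tested.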
